A study of Mus musculus with 4 samples.

Results

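Fascin, Gas2l3, a set of small GTPases and the MARCKS proteins are grouped here under cell shape. This account follows 10 of their genes: Fscn1, Gas2l3, Rhov, Rnd1, Rnd3, Rhob, Rhoc, Rras2, Marcks and Marcksl1. Every probe set that GEO's annotation of the array assigns to exactly 1 gene, and that gene one of the 10, was taken, which gave 27 of 45037 probe sets. A filter on low signal passed 26 of the 27 and 27022 in all. The filter worked on the mean over all 4 arrays. The 10 genes were selected on their function with their differences between the 2 groups on these same arrays already known, so those differences are given as a description, without a test of their own.

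Mouse macrophages were grown from bone marrow for 7 days in medium with 20% L-cell conditioned medium, plated overnight without it, and primed overnight with 100 U/ml of interferon-gamma. After a wash, 1 group received lipopolysaccharide (LPS, which engages TLR4) at 10 ng/ml together with immune complexes, which engage Fc gamma receptors, for 2 h. The other group received LPS alone at the same dose for 2 h, and its labels put the priming at 16 h. The series calls these type II and classical activation and looks for genes that tell them apart. All cells were thus primed and given LPS, and no unstimulated group was analysed here. Neither the mouse strain nor the antigen and antibody of the complexes is given in the labels used here. Each group had 2 arrays, numbered replicate 1 and replicate 2. The labels do not say whether replicates were separate cultures or animals, so the errors given here may be technical ones, of these samples alone. In RNA from whole cultures, fewer cells of a type and less RNA per cell cannot be told apart.

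A macrophage crawls, spreads and engulfs by rebuilding its actin network. Small GTPases switch that network between protrusion and contraction: Rac and Cdc42 drive protrusions, RhoA and its relatives drive contraction through the ROCK kinases and formins, and the Rnd proteins, which stay bound to GTP, oppose RhoA. Fascin packs actin filaments into the parallel bundles of filopodia and dendrites, Gas2l3 ties actin to microtubules, and the MARCKS proteins hold actin and phosphoinositides at the plasma membrane until protein kinase C or calmodulin releases them.

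The arrays differed in their dim signals. Each had a mean signal of 500 after the lowest and highest 2% were set aside, but the median was 155.4 on LPS plus immune complexes replicate 1, 68.2 on replicate 2, and 88.3 and 79.6 on the LPS arrays. The 5th percentile was 28.1 on LPS plus immune complexes replicate 1 and between 3.3 and 7.9 on the other arrays, so the dim readings of that array lie high. All 8 listed macrophage markers were above the filter. Their summed signal was 133083 and 150410 with LPS plus immune complexes, against 152219 and 186681 with LPS alone. Cd14 and Lyz2 were lower with immune complexes without overlap, and 2 of the 8 markers differed on the higher side. Mertk differed most, with groups that overlapped, at 3476.3 and 1857.9 with immune complexes, against 8525.9 and 3206 without. Of the dendritic cell list, which matters here because Fscn1 is a known marker of mature dendritic cells, 7 of 8 genes were on the array and 5 passed the filter. The summed signal of the 7 was 1039.7 and 387.4 with immune complexes, against 593.6 and 402.8 without, and no single reading exceeded 311. Ccr7, which mature dendritic cells express, read 147 and 86.7 with immune complexes, against 111.4 and 122.3 without. Cd209a was higher without overlap, at 175.7 and 112.5, against 99 and 50.5. The groups overlapped at the other tested genes of that list. The fibroblast, neutrophil, T and NK cell, B cell and endothelial lists had no reading above 359.4, apart from the neutrophil gene S100a8 at 871.3 and 1137.6 with immune complexes, against 540.8 and 504.7 without. Of the 4 neutrophil genes tested, S100a8 was the 1 that was higher without overlap. Mpo was lower without overlap, at 65.7 and 79.9 with immune complexes, against 95.2 and 108.2 without. Below the filter, S100a9 overlapped and Elane was higher without overlap. The part of other cell types in the values below was not tested.

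By their brightest probe sets, the genes fell into a pair that was higher with immune complexes, Gas2l3 and Rhov, and a trio that was lower, Fscn1, Rnd1 and Rras2. The other 5 differed by at most 0.31 on the log2 scale in either direction. For Fscn1 the lower place rests on 1 of its 4 probe sets. Of the 26 tested probe sets, limma with Benjamini-Hochberg adjustment over all 27022 called 1 higher, at Gas2l3, where 0.0444% of all probe sets were called higher, and 0 lower, where 0.0074% were. The groups did not overlap at 5 member probe sets on the higher side and 6 on the lower, against 13.6% and 12% of all probe sets. A difference of at least 2-fold in all 4 pairs of an array from each group was found at 4 on the higher side and 3 on the lower, against 0.755% and 0.185% of all. Because this comparison was known when the genes were listed, nothing is read from these counts. At an unadjusted limma p under 0.05 there were 8 member probe sets, and 503 higher and 256 lower in the whole table.

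**Figure D1:**
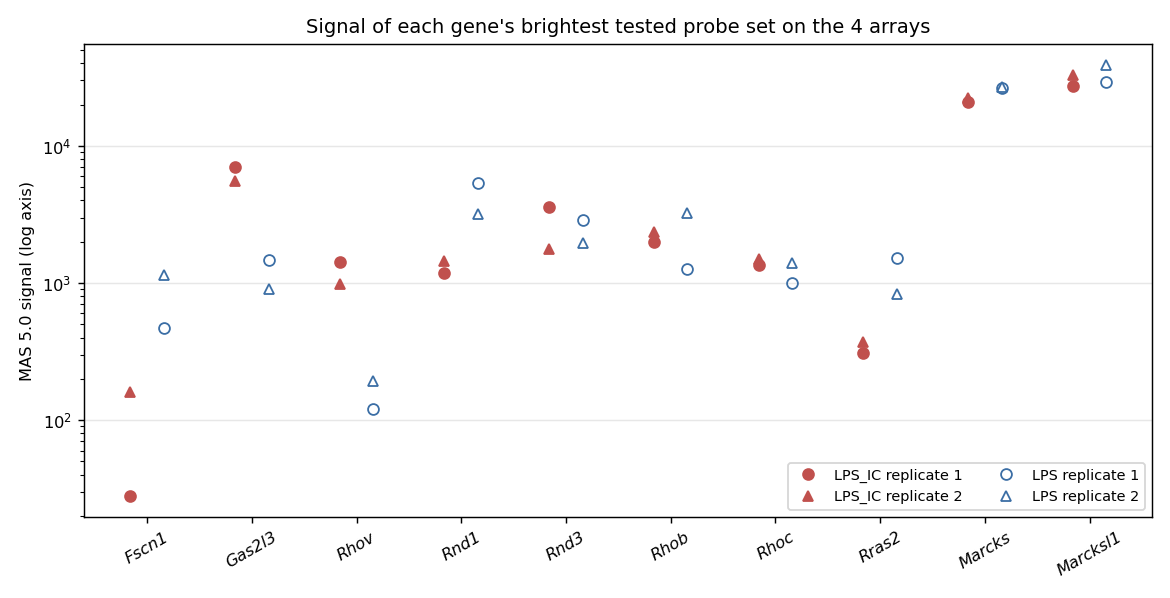
MAS 5.0 signal (log axis) of the brightest tested probe set of each gene, with filled red symbols for LPS plus immune complexes (LPS_IC) and open blue symbols for LPS, circles for replicate 1 and triangles for replicate 2. The groups lie apart for Fscn1, Gas2l3, Rhov, Rnd1, Rras2 and, narrowly, Marcks, and overlap for Rnd3, Rhob, Rhoc and Marcksl1; heights cannot be compared between genes.

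RefSeq's promoter table for GRCm38.p6 matched 8 of the 10 genes, all but Rnd1 and Marcks. The 250 bases before the transcription start are shown for the matched genes whose groups lay farthest apart, the higher pair and then the lower, so that a reader can set the start regions of genes that went opposite ways side by side. Capitals mark a cAMP response element (CRE, TGACGTCA) or a TATA box (TATAAA); the search covered both strands, and all are printed 5′ to 3′ on the gene's own strand.
Gas2l3 upstream, GRCm38.p6 chr10:89443968-89444217, minus strand: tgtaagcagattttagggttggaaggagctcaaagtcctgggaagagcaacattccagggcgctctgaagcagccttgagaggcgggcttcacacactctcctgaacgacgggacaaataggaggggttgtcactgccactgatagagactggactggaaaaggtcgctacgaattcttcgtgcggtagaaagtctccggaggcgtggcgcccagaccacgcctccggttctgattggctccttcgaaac
Rhov upstream, GRCm38.p6 chr2:119271227-119271476, minus strand: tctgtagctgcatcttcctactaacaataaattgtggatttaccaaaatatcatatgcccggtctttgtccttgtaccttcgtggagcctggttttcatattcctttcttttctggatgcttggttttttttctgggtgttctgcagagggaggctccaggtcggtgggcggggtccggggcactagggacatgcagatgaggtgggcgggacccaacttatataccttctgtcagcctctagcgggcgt
Fscn1 upstream, GRCm38.p6 chr5:142960105-142960354, plus strand: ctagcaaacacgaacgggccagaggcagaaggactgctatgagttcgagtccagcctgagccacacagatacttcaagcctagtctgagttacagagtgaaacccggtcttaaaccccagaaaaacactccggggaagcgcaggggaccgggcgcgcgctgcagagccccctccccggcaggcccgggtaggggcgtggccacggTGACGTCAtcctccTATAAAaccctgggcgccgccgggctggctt
Rras2 upstream, GRCm38.p6 chr7:114117782-114118031, minus strand: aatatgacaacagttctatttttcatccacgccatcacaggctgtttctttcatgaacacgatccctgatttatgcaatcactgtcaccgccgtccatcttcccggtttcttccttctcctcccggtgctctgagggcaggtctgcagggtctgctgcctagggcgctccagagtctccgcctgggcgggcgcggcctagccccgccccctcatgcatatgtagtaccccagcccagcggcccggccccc

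The Fscn1 window held a CRE that begins 45 bases before the start and a TATA box that begins 31 bases before it, and these did not overlap. A CRE stood in 1.55% and a TATA box in 12.4% of the 32851 promoter windows of the same length in the table. The Gas2l3, Rhov and Rras2 windows held neither in these exact letters. Variants, such as the tatata near the end of the printed Rhov window, were not counted. None of the 8 windows held an AP-1 site (TGANTCA, found in 6.75% of all windows) or the E-box CACGTG (6.02%). The narrow form of the kB motif that was searched (1.41%) was also absent from them. Other kB forms were not counted, so these windows may hold them. Rnd3 had a CArG box, the element bound by SRF, that begins 100 bases before its start, where 1.47% of all windows had one, and a TATA box 28 bases before it. The other matched genes, Rhob, Rhoc and Marcksl1, had no match to any of the 6 motifs. GC content was 62.4% for Fscn1, 59.6% for Rras2, 55.2% for Gas2l3 and 50% for Rhov, against a median of 52.4% over the table. A match in these letters is a description of the window and not a binding site.

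Gas2l3 carries an actin-binding calponin homology domain and a microtubule-binding GAS2 domain, and is known for its part in cytokinesis. Its brightest probe set read 7063.5 and 5502.7 with LPS plus immune complexes, against 1465.1 and 904.1 with LPS alone. The lowest reading with immune complexes lay well above the highest without. On the log2(signal + 32) scale, used for all differences here, it was 2.40 ± 0.36 higher (SE of the limma fit, n = 2 arrays per group), a 5.29-fold difference. The second probe set read 7840.4 and 4318.6 with immune complexes, against 1672.2 and 820 without, and another 6063.4 and 4900.2, against 1627.3 and 909.1. Their differences were 2.28 ± 0.42 and 2.13 ± 0.37, so all 3 probe sets put the groups apart by a like amount. With each array left out in turn, the brightest probe set differed by 2.07 to 2.74. The call at it (limma adjusted p = 0.0479) was lost without either LPS plus immune complexes array. The log2 difference was 2.23 without replicate 1 of that group and 2.58 without replicate 2. The call was kept without either LPS array, in fits where limma took the variance from its fitted trend alone.

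The genes nearest to Gas2l3 in shape over the 4 arrays were Hilpda, which protects lipid droplets from lipolysis, Cln8, an endoplasmic reticulum protein, and Csf3, the cytokine G-CSF. Each array's log2 value was centred on the gene's mean, and likeness was the Euclidean distance over the 4 arrays among 12881 other genes: 0.321 for Hilpda, 0.364 for Cln8 and 0.439 for Csf3, where the Gas2l3 profile itself has a length of 2.46. Hilpda read 8352.2 and 5350.7 with immune complexes, against 1518.5 and 1178.1 with LPS alone. With 4 arrays, such likeness says little beyond a shared difference between the groups.

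Rhov, an atypical relative of Cdc42 that binds PAK kinases, had the largest difference on the higher side among the 10 genes. Its only probe set read 1431.4 and 981.7 with immune complexes, against 120.5 and 192.5 with LPS alone. The readings with LPS alone were dim, though above the median of their arrays, and those with immune complexes lay far above them on both arrays. The means were 1206.6 ± 318 and 156.5 ± 50.9 (SD, n = 2 arrays per group), and the log2 difference was 2.72 ± 0.43. It lay between 2.17 and 3.26 in the 4 pairs of arrays.

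Fscn1 encodes fascin, and its brightest probe set had the largest difference on the lower side. It read 28.2 and 161.1 with LPS plus immune complexes, against 472.1 and 1142.9 with LPS alone. The groups did not overlap, but each spread more than 2-fold, and 28.2 is about the 5th percentile of that array, 28.1. The log2 difference was -2.84 ± 0.61, from -4.29 to -1.38 over the 4 pairs of arrays, and it was -1.99 without LPS plus immune complexes replicate 1 and -3.68 without replicate 2 of that group. The other Fscn1 probe sets did not show it. One read 160.9 and 247.5 with immune complexes, against 161.9 and 352.9 without, a log2 difference of -0.23 ± 0.51 with overlapping groups. Another read 183.5 and 11.1 with immune complexes, against 100.3 and 70.2 without (-0.27 ± 0.95). The last, below the filter, read 54.1 and 8.4, against 11.6 and 4.3. The Fscn1 difference therefore rests on 1 of its 4 probe sets, the one with the brightest LPS readings. All 4 carry the same gene ID in the annotation, and which transcripts each binds is not known here.

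Nearest to Fscn1 in shape were Il12b, the p40 subunit of IL-12 and IL-23, Ccnd2, which encodes cyclin D2, and Icosl, a costimulatory ligand. The distances were 0.954, 0.979 and 1.39, against a length of 3.19 for Fscn1, so none lay as close as the neighbours of Gas2l3. Icosl read 743.3 and 1479.5 with immune complexes, against 2783.6 and 4004.1 without.

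**Figure D2:**
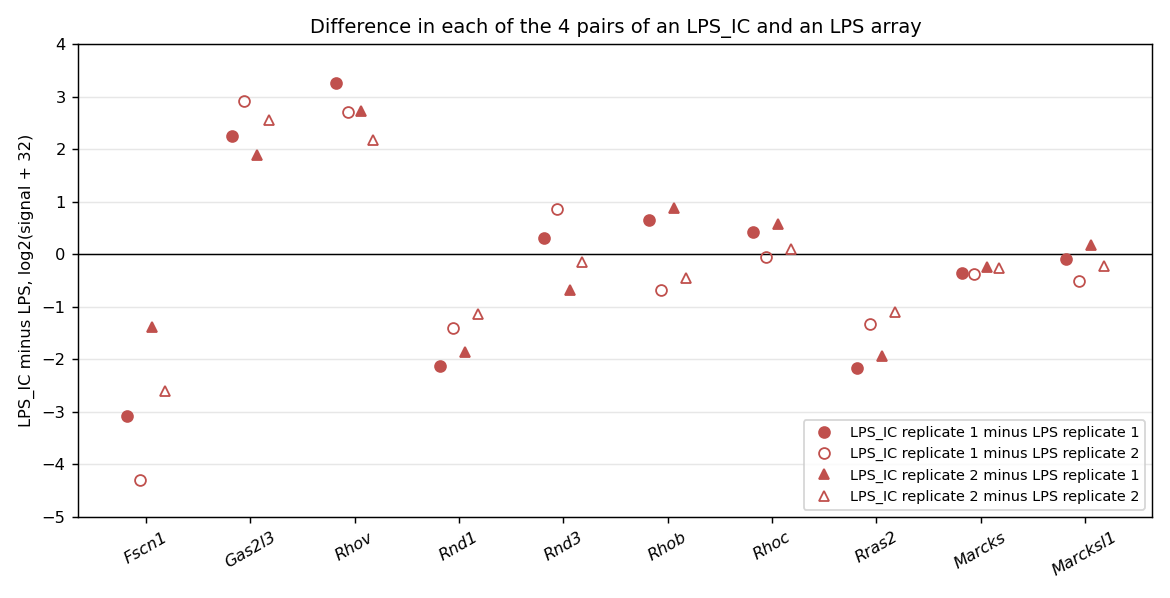
Differences in log2(signal + 32), LPS_IC minus LPS, in each of the 4 pairs of arrays for the brightest tested probe set of each gene; circles use LPS_IC replicate 1, triangles LPS_IC replicate 2, filled symbols LPS replicate 1 and open symbols LPS replicate 2. All 4 pairs lie above 1.8 for Gas2l3 and Rhov and below -1 for Fscn1, Rnd1 and Rras2, while Rnd3, Rhob, Rhoc and Marcksl1 have pairs on both sides of 0.

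The Rnd proteins counter RhoA, and Rnd1 also binds plexins while Rnd3 binds ROCK1. Rnd1 read 1192.4 and 1443.6 with immune complexes, against 5331.5 and 3194.7 with LPS alone. Even the dimmer LPS array was above both arrays with immune complexes. The log2 difference was -1.63 ± 0.37, a 3.09-fold lower level, and it ranged from -2.13 to -1.13 over the pairs of arrays. Rnd3 did not show such a separation. Its brighter probe set read 3582.4 and 1782.3 with immune complexes, against 2881.7 and 1965.8 without, and the dimmer 2166.3 and 941.6, against 2793.5 and 929.7. Their differences were 0.09 ± 0.40 and -0.17 ± 0.53, opposite in sign and within the spread of either group.

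Rhob and Rhoc are the close relatives of RhoA; RhoB is short-lived and sits on endosomes, and RhoC is known for cell migration. Rhob read 1990.9 and 2334.2 with immune complexes, against 1255.2 and 3226.7 with LPS alone. The LPS arrays lay on either side of both others, and the log2 difference was 0.10 ± 0.44. Rhoc read 1353 and 1504.8 with immune complexes, against 1004.2 and 1402.2 without, on a probe set of the _s_at kind, which can bind transcripts of more than one gene. Its second probe set read 342.1 and 606.7, against 320.7 and 471.5. The differences were 0.26 ± 0.37 and 0.21 ± 0.45, and the groups overlapped at both.

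Rras2 (TC21), a Ras relative that signals through PI3-kinase, was lower at both of its probe sets. The brighter read 310.4 and 369.5 with immune complexes, against 1512.4 and 826.9 with LPS alone, and the dimmer 290.6 and 261, against 611.3 and 634.1. At the dimmer one, the arrays of each group lay close together, with means of 275.8 ± 20.9 and 622.7 ± 16.1 (SD, n = 2). The log2 differences were -1.64 ± 0.43 and -1.09 ± 0.41. The groups did not overlap at either probe set.

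Marcks, the founding MARCKS protein, had 7 probe sets, more than any other of the genes. The brightest read 20704 and 22413.9 with immune complexes, against 26574.4 and 26865.2 with LPS alone, apart by only -0.31 ± 0.22. At the other 6 the groups overlapped, and the log2 differences of all 7 ran from -0.33 to 0.65. The next brightest read 11812 and 22411.5 with immune complexes, against 13445.5 and 22525 without, so its arrays differed more within a group than between groups. The probe set at 0.65 ± 0.52 was the dimmest, at 548.5 and 262.8, against 350.8 and 149.9. It is of the _x_at kind, which can bind other transcripts, as are the second brightest and another of the Marcks probe sets.

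Marcksl1 (MacMARCKS), the relative that is abundant in LPS-stimulated macrophages, had 4 probe sets that did not point one way. All 4 are of the _x_at or _s_at kinds, which can bind other transcripts. The brightest read 27297.8 and 32797.7 with immune complexes, against 29075.8 and 38540 with LPS alone, a difference of -0.16 ± 0.23 that was 0.09 with quantile normalization. The next read 17621.6 and 19806.3, against 23249.8 and 25423.3, lower without overlap at -0.38 ± 0.23. Another read 3762.2 and 3859.9, against 3374.2 and 3519.3, higher without overlap at 0.14 ± 0.31, and the last overlapped at 0.15 ± 0.33.

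**Figure D3:**
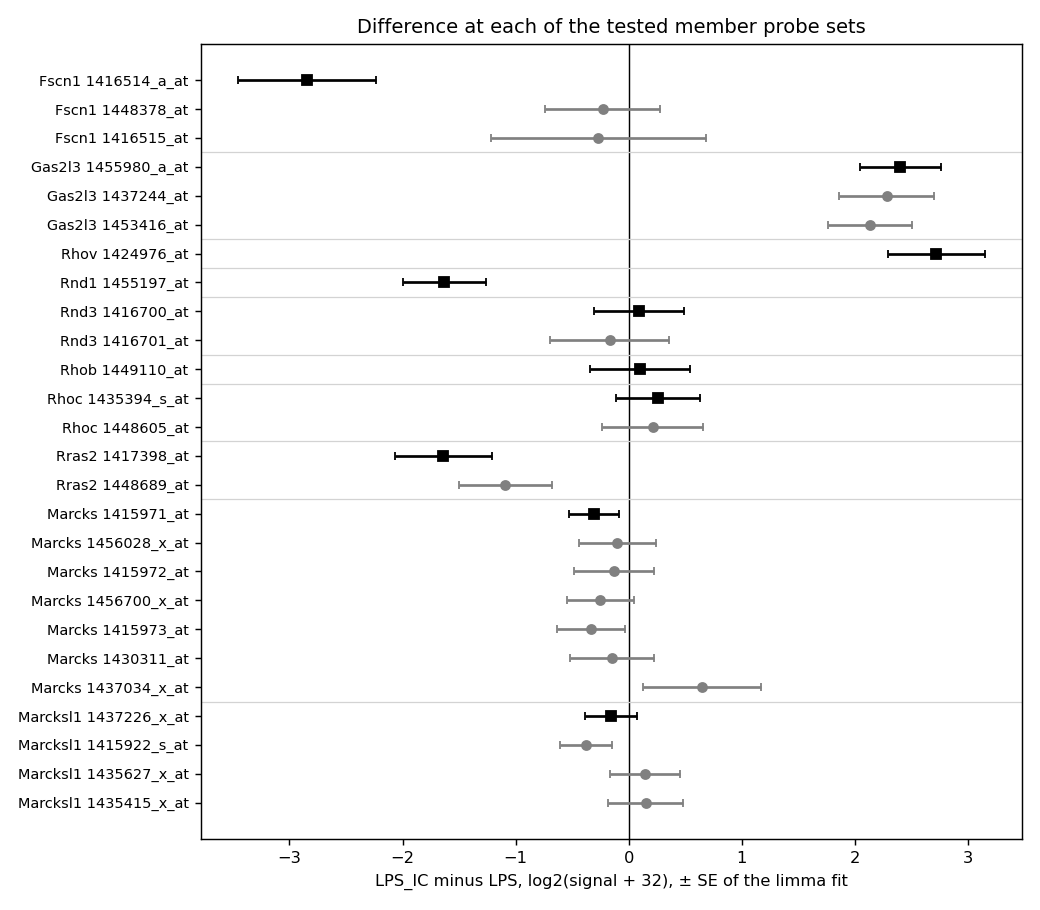
Difference in log2(signal + 32), LPS_IC minus LPS, with its limma standard error at each of the 26 tested probe sets; black squares mark the brightest of each gene and grey circles the others. The Gas2l3 probe sets lie together between 2.13 and 2.40 and the Rras2 ones are both below -1, whereas Fscn1 has 1 probe set at -2.84 and a pair near -0.25.

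None of the other genes of these pathways passed the threshold. Of 179 genes in 11 lists, 162 were on the array and 153 tested, each by its brightest probe set. The limma fit called 0 higher and 0 lower, where 0.0621% and 0% of all 12891 genes were called. At an unadjusted p under 0.05 there were 1 higher, Arhgap25, and 3 lower, Rap2c, Arhgef3 and Filip1l, against 256 and 147 of all genes. Their median log2 difference was -0.08, beside 0.05 for all genes tested and -0.04 for the 10 genes described here. Groups did not overlap for 15 on the higher side and 26 on the lower, against 13.2% and 13.1% of all genes.

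Of 12 other Ras, Rap and Ral GTPases, 0 passed and the median was -0.17. Rap2c had the largest value, with 4488 and 6130.7, against 9820.1 and 8456.5 (-0.79 ± 0.29), followed by Rap2b at -0.51 ± 0.36 and Rit1 at -0.50 ± 0.53. Of 9 plexins, 0 passed (median 0.24), with Plxna2 at 1.04 ± 0.54 and Plxna1 at 0.60 ± 0.39.

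Of 16 other actin bundlers and crosslinkers, 0 passed (median 0.15). Vill, Eps8 and Flnc had the largest values, 0.95 ± 0.80, 0.94 ± 0.67 and 0.81 ± 0.87, each with groups that overlapped, and the abundant bundler Lcp1 had -0.31 ± 0.25. Of 12 other GAS2 family genes and linkers, 0 passed (median -0.16). The largest value was that of Mapre3, which encodes a protein of microtubule ends, with readings of 64 and 143.1, against 151.3 and 188.1, lower without overlap at -0.63 ± 0.60. The Gas2l3 relatives Gas2l2, Gas2 and Gas2l1 were at 0.60 ± 1.01, 0.36 ± 0.78 and -0.14 ± 0.40, with groups that overlapped. Of 13 genes for protein kinase C, calmodulin and PIP2 enzymes, which act on MARCKS, 0 passed (median 0.04). Pip5k1b was at 1.35 ± 0.69, with readings of 321.6 and 122.1, against 94.3 and 34.1, and the kinase Prkce was at -0.80 ± 0.46. Add3, an adducin, was at 0.65 ± 0.47, higher without overlap, and the kinase Prkcd at -0.52 ± 0.29, lower without overlap. Of 22 podosome and actin nucleation genes, 0 passed (median -0.20), and none was beyond 0.44 in either direction. Evl and Vcl, which encodes vinculin, had the largest values, 0.44 ± 0.31 and 0.36 ± 0.37. Of 13 SRF and MRTF genes, 0 passed (median 0.30), with Srf, the transcription factor itself, at 0.77 ± 0.40, its cofactor gene Mrtfa at 0.69 ± 0.55 and Filip1l at -0.91 ± 0.38.

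**Figure D4:**
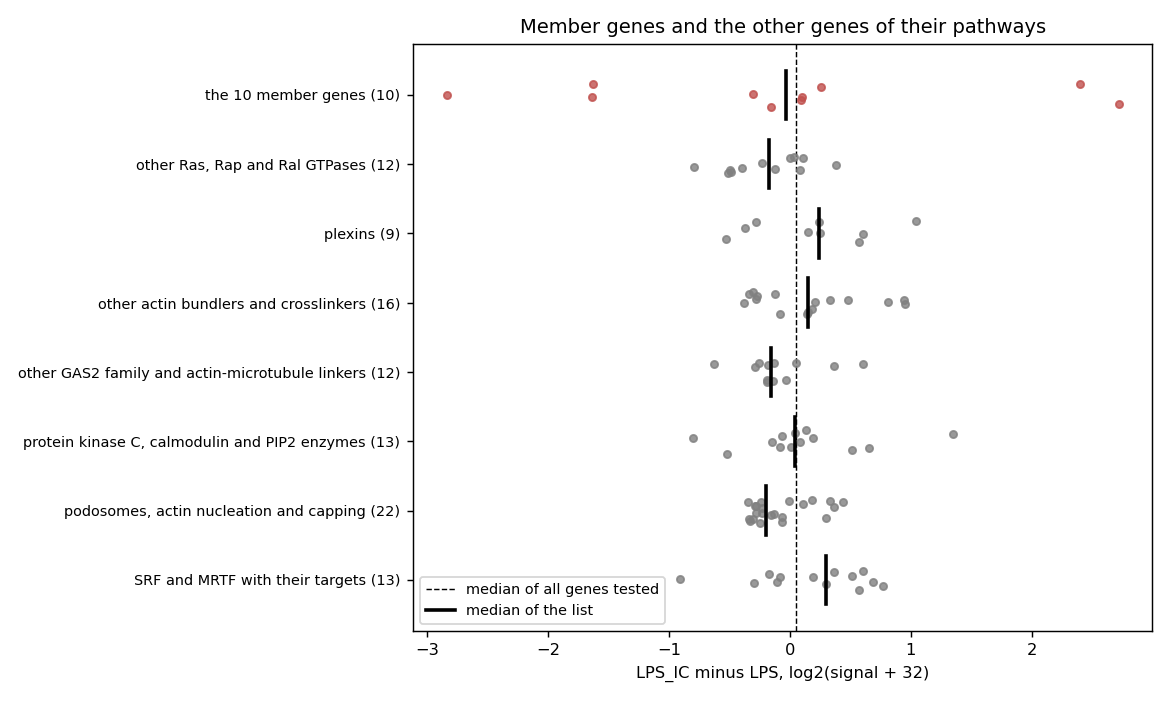
Log2 difference, LPS_IC minus LPS, of the 10 genes described here (red) and of each tested gene of 7 of the pathway lists (grey, number tested in brackets); bars mark each list's median and the dashed line the median of all genes tested, 0.05. No pathway gene drawn lies beyond -0.91 on the lower or 1.35 on the higher side, and the red points reach -2.84 and 2.72, values that were known when those genes were chosen.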

How the data were processed

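Total RNA was biotin-labelled and hybridised to a mouse Affymetrix array, per the labels' protocols. The deposited values are linear intensities, with 1 value for a probe set on an array. The authors made them with MAS5 version 5.0, per the submitters' processing notes. In the deposited intensities the trimmed mean is equal on all 4 arrays. Genome build and detection calls are not given in the sources used here. Titles gave the groups and replicate numbers.

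Analyses used log2(signal + 32), a scale on which dim probe sets appear to change less than they do. The 64 controls and probe sets with a mean under the 40th percentile (69.6) were left out. The difference, LPS plus immune complexes minus LPS, was fitted with lmFit and eBayes of limma 3.58.1 in R 4.3.3, with a variance trend, no block and a two-sided test. A call is an adjusted p (Benjamini-Hochberg, over all 27022 tested) under 0.05. The method was tested on simulated data. Those had independent noise, without the shared replicate deviations or the raised dim readings of the real arrays. That test therefore cannot show whether the calls here hold. Arrays limit precision by their number, 2 per group.

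Probe sets were named from GEO's platform annotation (34945 probe sets with 1 gene, 932 with several, 9160 with none), updated through RefSeq gene IDs. Of a gene's tested probe sets, the one brightest on average represents it. The members and lists were chosen with earlier results of these data known. Named besides the members were genes past the threshold in a list, or else up to 4 by size, and 3 nearest profiles each for Gas2l3 and Fscn1. Other genes named among the lists, such as relatives of members, were chosen after their values were seen. The results of 4 of the lists are not reported one by one here. Alternatives were other normalizations, pseudocounts, filters and variance settings, a replicate block, averaging the probe sets of a gene, and leaving out each array.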

Additional observations from a re-analysis of the deposited data

How the results depend on the processing

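The number of probe sets called depended on the processing. As reported limma called 12 higher and 2 lower. It called 0 and 0 with quantile normalization, with the filter set at 500 and without the variance trend, where 528, 292 and 476 were higher and 292, 184 and 143 lower at an unadjusted p under 0.05. Counts higher and lower were 33 and 14 with median centring, 20 and 3 with a pseudocount of 1, 6 and 0 with one of 100, 68 and 21 without a filter, and 4 and 0 with the filter at the 60th percentile. Leaving out single arrays gave 0 to 77 higher and 0 to 32 lower, with 0 and 0 without either LPS plus immune complexes array, 74 and 23 when LPS replicate 1 was left out, and 77 and 32 when LPS replicate 2 was. With the replicate number as a replicate block the counts were 404 and 267. The labels do not say what a shared replicate number stands for. Over the tested probe sets, replicate 1 deviations in the groups had r = 0.38, and replicate 2 of LPS plus immune complexes and replicate 2 of LPS were the closest pair of arrays (r = 0.97, against 0.87 to 0.93 for the others). The replicate block called 7 member probe sets, 4 higher (Gas2l3 at all 3 and Rhov) and 3 lower (Fscn1, Rnd1 and Rras2), and among the pathway genes 1 higher, Arhgap25, and 3 lower, Rap2c, Arhgef3 and Filip1l. Other settings also called members besides the 1 Gas2l3 probe set. Gas2l3 at all 3 and Rhov were higher without a filter (Fscn1 and Rnd1 lower), without LPS replicate 1 (Fscn1 lower) and without LPS replicate 2 (Rnd1 lower). With median centring Gas2l3 and Rhov were higher and Fscn1 lower, and with a pseudocount of 1 Gas2l3 and Rhov higher. No member was called in the other 7 alternatives. Elsewhere the pathway genes gave 0 calls in either direction, except 1 lower, Stmn1 at -1.64, without LPS replicate 1, so 0 to 1 lower over the arrays left out.

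The Gas2l3 call (adjusted p = 0.0479) also missed the threshold with quantile normalization (0.193), a pseudocount of 100 (0.0788), the 60th percentile (0.102) or a mean of 500 (0.104) as filter, and without the variance trend (1), while its difference stayed between 2.07 and 2.74 over all 13 alternatives. Of the 26 member probe sets, 13 kept 1 sign in every alternative that tested them, among them every one of Gas2l3, Rhov, Rnd1 and Rras2 and the brightest of Fscn1, and 13 did not. Averaged over its tested probe sets, Fscn1 differed by -1.11. Of 143 recomputed list medians 14 moved by more than the spread between array pairs. The median over all tested probe sets was 0.07 as reported, -0.03 with quantile normalization, -0.13 with median centring and 0.20 without LPS plus immune complexes replicate 2. The cause of these shifts was not tested. The table holds no detection calls, so no bound could be set for dim readings such as those of Fscn1 with immune complexes.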

Other observations

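The readings of several listed genes lay farther apart within each group than between the groups. Gsn read 7488.3 and 16025.6 with LPS plus immune complexes, against 9171.2 and 19230.7 with LPS alone. Rheb went the other way over the replicates, with 8011.3 and 5629.5, against 8627 and 4511.2. Stmn1, which destabilises microtubules, read 819.7 and 7396.9 with LPS plus immune complexes, against 725.1 and 7812.8 with LPS alone, so replicate 2 lay far above replicate 1 in both groups. Gas2l3, known for its part in cytokinesis, did not share this pattern, with 7063.5 and 5502.7, against 1465.1 and 904.1. Stmn1 and Gas2l3 were picked out after their values were seen, and the part of dividing cells in either was not tested.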
